A study of Mus musculus with 14 samples.

Results

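The 38 genes described here carry glucose into the cell, split it to pyruvate, exchange lactate, pass pyruvate to the mitochondrion, store and release glycogen, or belong to the pentose phosphate branch. They were chosen by name, with earlier results of these data known. Each gene was read from the probe that bears its symbol, and where several did, from the probe measured in most samples. Of the 38 genes, 34 had a probe and all 34 were tested, out of 13661 genes named on an array of 33600 probes. Gpi1, Eno1, G6pdx and Pgd were not analysed here. The RNA came from astrocytes grown from brains of newborn mice, each brain in its own culture, in serum-containing medium. Null samples (1 to 4) came from mice lacking connexin43 (Cx43), the main gap junction protein of astrocytes, encoded by Gja1. The siRNA samples (1 to 4) came from wild-type cells transfected with a small interfering RNA construct against Cx43, and the wild-type samples used were numbers 3, 4 and 6 of 6. No source used here gives the strain, the sex or the null allele, or whether that allele is constitutive. The knockdown lasted 36 h per the design text, while the protein protocol names 48 h. No group here is a mock transfection, so transfection and loss of Cx43 cannot be told apart in the siRNA samples. The titles call the cells cortical, whereas the protocol describes dissecting whole brain.

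Glycolysis turns glucose into pyruvate, and lactate dehydrogenase and the monocarboxylate transporters then let a cell export lactate or take it up. Astrocytes are known as strongly glycolytic cells that hold most of the brain's glycogen, supply lactate to neurons, and share glucose and its metabolites through Cx43 channels. By its title, the series sets genetic loss of Cx43 beside its acute knockdown.

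Each value is a log2 intensity as the authors deposited it, with every sample centred so that its median probe is at 0. Levels of 1 probe can be set side by side between samples only up to an offset, and levels of different probes cannot be compared. The centring uses whichever probes have a value, and these differ between samples. Over the tested probes defined below, the median ran from 0.17 in siRNA sample 1 to 0.98 in null sample 3. A sample had a value for 53.12% to 79.84% of probes, and intensity over background is unknown. The 11 samples used correlated at r = 0.8941 to 0.9484 with the mean of the others over probes. Wild-type samples 1 and 2 did so at 0.3699 and 0.3804, with values that matched the other samples only after most were moved by 1 row of the print grid, and wild-type sample 5 at -0.0201. None of these 3 entered the main comparisons. Null and siRNA samples numbered 1 and 2 differed from those numbered 3 and 4 across the whole array, and are called replicate sets below. Within a group, consecutive samples (1 and 2, or 3 and 4) correlated at 0.92309 to 0.99036, while samples of different sets correlated at 0.70898 to 0.77911. Consecutive samples carry Cy3 and Cy5 and may share an array, which the labels do not state. Gja1 checked the labels: it read -1.17, -1.06, 2.82 and 3.03 in null samples 1 to 4, 1.93, 2.13, 5.47 and 5.70 in siRNA samples 1 to 4, and 6.08, 7.53 and 4.82 in wild-type samples 3, 4 and 6. All null samples lay below all wild-type samples, whereas siRNA samples 3 and 4 lay within the wild-type range. Its fitted change was -3.31 ± 0.58 (SE, adjusted p = 0.0387) in null and -0.41 ± 0.58 (SE, adjusted p = 0.731) in siRNA samples against wild type. The mRNA reduction in the design text is 3.24 times. Null against siRNA gave -2.90 ± 0.48 (SE, adjusted p = 0.00694), called on leaving out any 1 sample. The null call against wild type was lost without null sample 2, 3 or 4, siRNA sample 1, 3 or 4, or wild-type sample 3 or 4 (changes of -3.9996 to -2.65 over all omissions, adjusted p up to 0.224), and with array pairs as a random block (-3.11).

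The changes below come from 1 linear model over the 11 samples, with the dye and the replicate set as covariates. The wild-type samples used were placed in the later set by their numbers alone, and no label states that they share a set with the others. The first set therefore informs a contrast with wild type through the set term, and these contrasts rest on that placement. For genes called against wild type, and for some others, the plain difference of group means within replicates 3 and above is also given. A gene rose or fell where the adjusted p over all 19976 tested probes was under 0.05, and such a gene is called. Because no label links samples to cultures, a p-value here reflects sample-to-sample spread alone, part or all of which may be technical.

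In null astrocytes, none of the 34 genes was called against wild type at that threshold in limma, while 3 had an unadjusted p under 0.05, namely Ldhb (0.0108), Slc16a1 (0.0136) and Pkm (0.0335). Of all tested probes, 3414 of 19976 (17.1%) had an unadjusted p under 0.05 there, and the array-wide share of called probes was 0.606%. The median change over the 34 genes was 0.32, beside 0.27 over all tested probes, and 23 of 34 were above 0. In siRNA-treated astrocytes, 4 of 34 genes were called against wild type, where 7.45% of all probes were. Pkm (pyruvate kinase) and Gapdh (glyceraldehyde-3-phosphate dehydrogenase) rose, and Aldoc (aldolase C) and Ldhb (the B subunit of lactate dehydrogenase) fell. The median of the 34 genes was 0.03, beside 0.13 over all probes. Between null and siRNA samples, 5 of 34 were called, beside 5.91% of all probes: Aldoc, Pfkp and Pfkm were higher in null, and Pkm and Taldo1 were lower. The median change there was 0.31, beside 0.11 over all probes. The 2 contrasts with wild type share the 3 wild-type samples, and both contrasts of null share the null samples.

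Treating consecutive samples as pairs on 1 array, with an estimated correlation of 0.4343 between them, left 2 of these 9 calls: Pkm in siRNA against wild type (change 2.79, adjusted p = 0.0225) and Aldoc in null against siRNA (3.30, adjusted p = 0.0264). Under that setting 0.015% of probes were called for null against wild type, 1.25% for siRNA against wild type and 0.646% for null against siRNA. Without the replicate set as a covariate, none of the 9 was called. Neither setting added a call among the 34 genes. The replicate number as a block, given for some genes below, called more of all probes: 1960 of 19940 for siRNA against wild type and 2341 for null against siRNA.

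**Figure D1:**
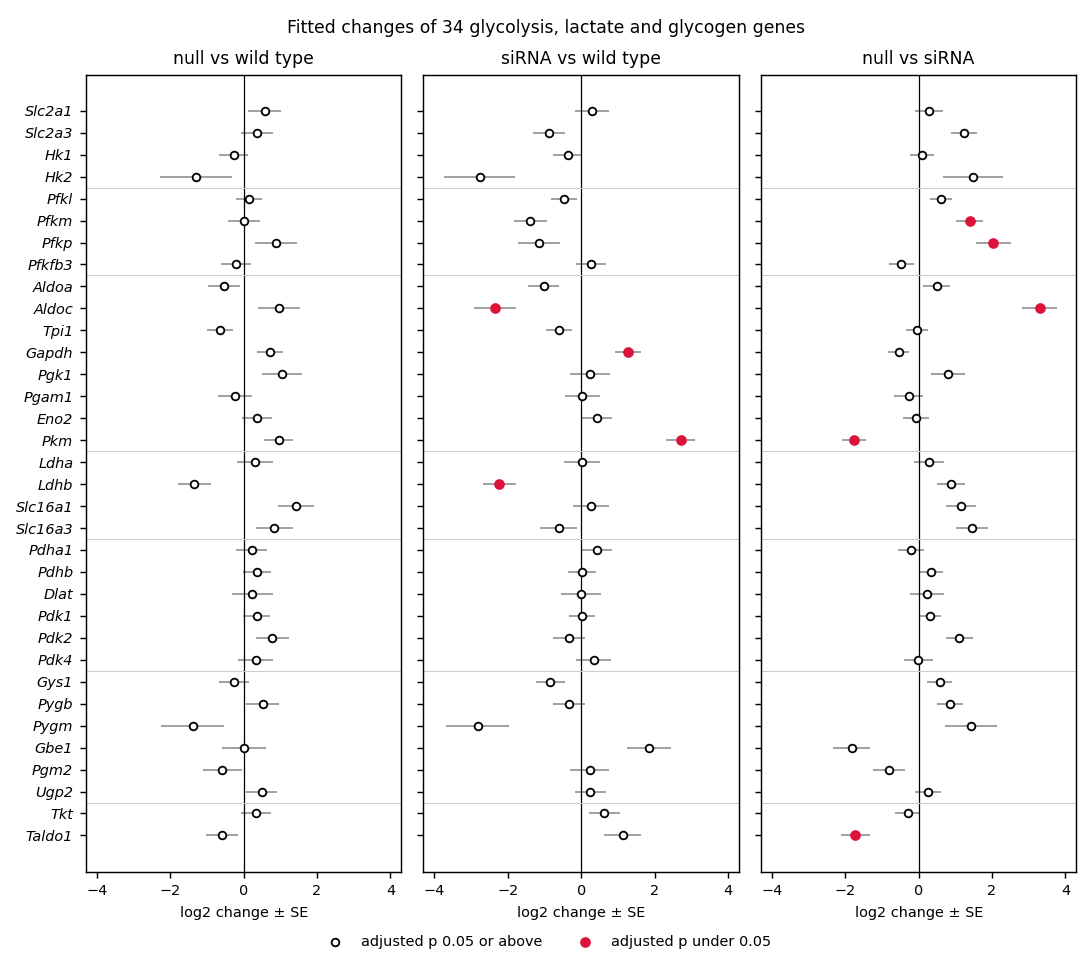
Fitted log2 change (x axis, point) with its standard error (bar) for 34 glycolysis, lactate and glycogen genes (y axis, in pathway order) in 3 comparisons, 1 per panel. Filled red points are called: 0 in the left panel, 4 in the middle and 5 in the right, with Pkm and Aldoc on opposite sides in both panels where they are called.

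Markers of other cells moved too, with calls only in comparisons that hold the siRNA samples, and stand beside every result below. Of all probes, 0.606% were called for null and 7.45% for siRNA against wild type, and 5.91% for null against siRNA. Of 9 tested microglia markers, 5 fell against wild type (Aif1, Tyrobp, C1qa, C1qb and Laptm5) and none rose, with a median of -2.04. The mean level of the 8 measured in every sample ran from 1.59 to 2.32 in siRNA samples, against 3.01 to 3.69 in wild type. In null samples it ran from 2.22 to 4.47, and 0 of 9 were called against wild type. Of 7 tested astrocyte markers, Aldh1l1 rose in siRNA against wild type (1.82, adjusted p = 0.0371), none fell, 3 of 7 were above 0 and the median change was -0.34. The lowest of them were S100b (-2.38, adjusted p = 0.0586) and Aqp4 (-1.33, adjusted p = 0.0748). The mean level of the 5 measured in every sample was 2.21 to 3.86 in siRNA, 3.46 to 3.96 in null and 3.34 to 3.71 in wild-type samples. Glul, the glutamine synthetase that marks astrocytes in brain, averaged 7.12 in null, 6.03 in siRNA and 6.73 in wild-type samples, and Gfap was not among the tested probes. In siRNA against wild type, 2 of 9 fibroblast and mural markers fell (Col3a1 and Dcn), as did 1 of 7 neuron markers (Tubb3) and 1 of 4 ependyma markers (Ccdc39). None of 7 oligodendrocyte markers and not the 1 tested endothelium marker was called there. Fibroblast and mural markers tended lower in null samples too, with a median change of -0.51 beside -0.81 in siRNA samples. The 3 measured in every sample averaged -1.84 to 1.21 in null and -1.63 to -0.07 in siRNA samples. In wild-type samples they averaged 0.74 to 3.08. In null against wild type, Col3a1 changed by -2.78 and Dcn by -1.84, none of the 9 was called and 3 were above 0. Between null and siRNA samples, 4 of 9 microglia, 1 of 7 astrocyte, 1 of 7 oligodendrocyte and 2 of 4 ependyma markers were higher in null, and none was lower. No value on this centred scale marks a gene as absent. Their part in the results was not tested, and fewer cells of a type cannot be told apart from less RNA per cell in these bulk samples.

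Glucose entry and phosphorylation were represented by 4 genes, none called in any comparison. Of all probes, 0.606% were called for null and 7.45% for siRNA against wild type, and 5.91% between null and siRNA. Slc2a1 encodes GLUT1, the main glucose transporter of astrocytes and brain endothelium. It read 3.03, 3.27, 4.15 and 4.51 in null, 2.91, 3.83, 3.27 and 3.84 in siRNA, and 3.92, 3.78 and 2.96 in wild-type samples, so that the 3 groups overlapped. Slc2a3, for the transporter best known from neurons, spanned 1.84 to 2.03 in null and 0.03 to 1.47 in siRNA, against 0.90 to 1.80 in wild-type samples. Its null values lay above both other groups without overlap. The fitted change was 1.24 ± 0.36 (SE, adjusted p = 0.0644) for null against siRNA and 0.36 for null against wild type. With the replicate number as a block the first was called (adjusted p = 0.0492). It was not called with array pairs (adjusted p = 0.279) or without the set term (adjusted p = 0.316). Hk1, the hexokinase of most brain cells, read 1.18, 1.21, 1.27 and 1.56 in null, 0.98, 1.67, 0.74 and 1.44 in siRNA, and 1.90, 1.61 and 1.31 in wild-type samples, with no gap between groups.

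Hk2, the hexokinase typical of muscle and tumours, split the siRNA samples by set. It read 3.16, 3.32, 2.78 and 2.84 in null, 4.12, 4.22, -1.95 and -0.19 in siRNA, and 3.43, 1.97 and 3.40 in wild-type samples. The first pair of siRNA samples was the highest of all 11 and the later pair the lowest. The fitted siRNA change of -2.77 ± 0.98 (SE, adjusted p = 0.108) averages these opposite readings. Within replicates 3 and above, null minus wild type was -0.12, beside a fitted change of -1.29, and siRNA minus wild type was -4.01. Null minus siRNA was -0.93 in replicates 1 and 2 and 3.88 in replicates 3 and 4. Fitted in limma on replicates 3 and above only, Hk2 was called as lower in siRNA than in wild-type samples (-3.97, adjusted p = 0.000797). It was also called there as higher in null than in siRNA samples (3.88, adjusted p = 0.00169). Fitted on replicates 1 and 2 only, it was called the other way, as lower in null than in siRNA samples (-0.93, adjusted p = 0.000298). These fits count consecutive null or siRNA samples, which may share an array, as separate replicates, so their p-values may be too small.

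Phosphofructokinase commits glucose to glycolysis, and 2 of the 4 genes of this step were called as higher in null than in siRNA samples. Of all probes, 5.91% were called there in either direction. With array pairs neither gene was called (adjusted p = 0.150 for Pfkp and 0.217 for Pfkm). Pfkp, the platelet-type subunit, read 4.26, 4.67, 4.87 and 4.90 in null, 3.06, 3.87, 1.29 and 2.34 in siRNA, and 4.09, 3.47 and 2.997 in wild-type samples. Every null sample exceeded every other sample. Against siRNA, Pfkp was 4.09-fold higher in null (log2 change 2.03 ± 0.47 SE, adjusted p = 0.0291), with differences of 1.00 in replicates 1 and 2 and 3.07 in replicates 3 and 4. Against wild type the null change was 0.89 and the siRNA change -1.15, neither called.

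Pfkm, the muscle-type subunit, differed in another way, with siRNA samples low and null samples overlapping wild type. It read 3.19, 3.18, 4.20 and 4.98 in null, 2.11, 2.67, 2.30 and 2.89 in siRNA, and 4.10, 4.97 and 4.00 in wild-type samples. All 4 siRNA samples lay below all null and all wild-type samples. The null to siRNA ratio was 2.63-fold (1.39 ± 0.37 SE, adjusted p = 0.0451), and the siRNA change against wild type was -1.38 ± 0.44 (SE, adjusted p = 0.0780). With the replicate number as a block, which leaves wild-type sample 6 without a partner and so out of this contrast, the siRNA change was -1.63 and was called (adjusted p = 0.0426). Leaving out that sample alone gave the same change, also called (adjusted p = 0.0463). The siRNA change was not called with array pairs or without the set term. The Pfkm call was near the threshold: it was lost on leaving out any 1 null or siRNA sample or wild-type sample 4 (changes of 1.18 to 1.64, adjusted p up to 0.167). The Pfkp call was lost without null sample 3 or 4 or siRNA sample 3 or 4 (changes of 1.60 to 2.42 over all omissions, adjusted p up to 0.116).

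Pfkl, the liver-type subunit, ran from 1.66 to 3.23 in null and 0.77 to 2.59 in siRNA, against 2.65 to 3.32 in wild-type samples, with siRNA entirely below wild type but a fitted change of only -0.47 (adjusted p = 0.474). The low values of siRNA samples were those of the first set, in which null samples were low too. Pfkfb3 makes fructose-2,6-bisphosphate, the activator of phosphofructokinase. It ran from 2.01 to 2.63 in null and 1.88 to 3.40 in siRNA, against 2.72 to 3.003 in wild-type samples, and all 3 fitted changes were between -0.47 and 0.26.

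Aldolase splits fructose-1,6-bisphosphate, and Aldoc, its brain form and a marker of astrocytes, gave the largest null to siRNA difference of the 34 genes. It read 1.52, 1.78, 2.67 and 2.80 in null, -2.70, -2.44, 0.10 and 0.62 in siRNA, and 3.25, 1.98 and 1.39 in wild-type samples. All 4 siRNA samples lay below all 7 others, while null and wild type overlapped. The null to siRNA ratio was 9.84-fold (3.30 ± 0.48 SE, adjusted p = 0.00336), with 4.22 in replicates 1 and 2 and 2.38 in replicates 3 and 4, and it was called on leaving out any 1 sample. Against wild type Aldoc was 5.05-fold lower in siRNA samples (-2.34 ± 0.57 SE, adjusted p = 0.0300), with a difference of -1.85 within replicates 3 and above. That call was lost without null sample 4, siRNA sample 3 or 4, or wild-type sample 3 or 4 (changes of -2.95 to -1.64 over all omissions, adjusted p up to 0.105). In null samples the change from wild type was 0.96 (adjusted p = 0.428).

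Aldoa, the widely expressed aldolase, was not called in any comparison. It read 6.60, 7.12, 6.57 and 6.92 in null, 6.55, 7.46, 5.52 and 5.71 in siRNA, and 6.92, 6.77 and 7.37 in wild-type samples. Only siRNA samples 3 and 4 lay below the rest, and the siRNA change against wild type was -1.02 ± 0.43 (SE, adjusted p = 0.173). Tpi1 (triosephosphate isomerase) ran from 4.24 to 4.67 in null and 4.03 to 4.99 in siRNA, against 4.59 to 5.21 in wild-type samples, with changes of -0.65 in null and -0.60 in siRNA against wild type, neither called.

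**Figure D2:**
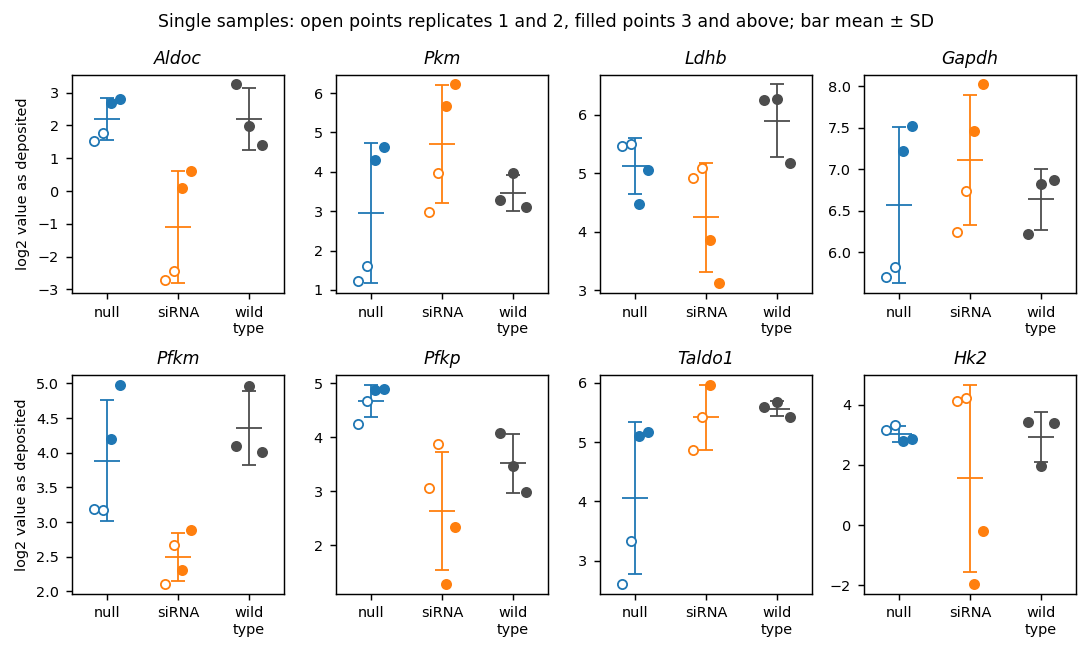
Deposited log2 value (y axis) of single null, siRNA and wild-type samples for the 7 called genes and Hk2. Open points are replicates 1 and 2, filled points replicates 3 and above, and bars the group mean ± SD (n = 4, 4 and 3, with Taldo1 measured in 3 siRNA samples); Aldoc and Pfkm are low in all 4 siRNA samples, whereas siRNA values of Hk2 lie at both ends.

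Promoters are shown for 4 called genes of the same steps: Aldoc, Pfkp and Pfkm, which were higher in null than in siRNA samples, and Pkm, which was lower. They are the 250 bases before the start of the first window listed for each gene in RefSeq's GRCm38.p6 annotation, 5′ to 3′ on the gene's strand. Capitals mark ACGTG, a form of the core of the hypoxia response element, and the GC box, GGGCGG, on either strand. That core can also read GCGTG, which was neither marked nor counted here and which the Aldoc and Pfkp windows hold. Aldoc lies at chr11:78322823-78323072 (+ strand), Pfkp at chr13:6648772-6649021 (- strand), Pfkm at chr15:98092339-98092588 (+ strand) and Pkm at chr9:59656326-59656575 (+ strand), and RefSeq lists 2, 1, 4 and 2 windows for them in that order.
Aldoc: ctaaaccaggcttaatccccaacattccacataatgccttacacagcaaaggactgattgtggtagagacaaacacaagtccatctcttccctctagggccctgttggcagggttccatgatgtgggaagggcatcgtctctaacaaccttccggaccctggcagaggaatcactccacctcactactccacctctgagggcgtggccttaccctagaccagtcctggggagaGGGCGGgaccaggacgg
Pfkp: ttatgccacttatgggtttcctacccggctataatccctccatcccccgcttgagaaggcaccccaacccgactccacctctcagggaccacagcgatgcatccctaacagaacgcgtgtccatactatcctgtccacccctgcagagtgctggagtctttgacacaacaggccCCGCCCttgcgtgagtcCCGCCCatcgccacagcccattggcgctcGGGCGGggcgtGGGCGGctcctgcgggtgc
Pfkm: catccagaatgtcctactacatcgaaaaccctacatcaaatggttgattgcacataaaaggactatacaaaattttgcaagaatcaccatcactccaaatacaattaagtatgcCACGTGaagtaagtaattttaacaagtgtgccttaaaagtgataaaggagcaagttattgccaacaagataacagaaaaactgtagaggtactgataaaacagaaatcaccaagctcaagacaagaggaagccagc
Pkm: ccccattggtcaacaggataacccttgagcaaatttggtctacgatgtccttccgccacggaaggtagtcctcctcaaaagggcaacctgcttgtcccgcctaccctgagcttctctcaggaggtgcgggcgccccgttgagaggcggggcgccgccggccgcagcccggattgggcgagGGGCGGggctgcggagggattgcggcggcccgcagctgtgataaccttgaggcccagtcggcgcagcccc
The Aldoc and Pkm windows each held 1 GC box, the Pfkp window held 4, and the Pfkm window held a CACGTG, which reads as ACGTG on both strands, and no GC box. GC content was 55.2% in the Aldoc, 62.8% in the Pfkp, 36.4% in the Pfkm and 66.4% in the Pkm window. Of the 34 tested genes, 33 had a window, and 15 of these (45.455%) held ACGTG on either strand, beside 16.566% of 27025 promoters. Among the 7 called genes only Pfkm did. CACGTG, which contains ACGTG, occurred in 4 of 33 (12.121%), beside 6.0463% of all promoters, and GGGCGG in 19 of 33 (57.576%), beside 32.936%. These are matches of letters in 1 window per gene, and no binding or promoter activity was measured.

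The enzymes from Gapdh to pyruvate kinase included both genes that rose in siRNA against wild type. Pkm, which makes the M1 and M2 isoforms of pyruvate kinase, read 1.22, 1.60, 4.303 and 4.64 in null, 2.98, 3.98, 5.67 and 6.22 in siRNA, and 3.30, 3.96 and 3.10 in wild-type samples. Within each set, siRNA samples were above null samples, and the later siRNA samples were the highest of all 11. Pkm was 6.58-fold higher in siRNA samples than in wild type (2.72 ± 0.40 SE, adjusted p = 0.00327), and called on leaving out any 1 sample. Within replicates 3 and above the difference was 2.49. Null samples were 3.40-fold lower than siRNA samples (-1.77 ± 0.33 SE, adjusted p = 0.0116), by -2.06 in replicates 1 and 2 and -1.47 in replicates 3 and 4. Fitted on replicates 3 and above only, that difference was not called (adjusted p = 0.0880). The null change against wild type was 0.95 ± 0.40 (SE, adjusted p = 0.245). A second Pkm probe gave 0.79 for siRNA against wild type (adjusted p = 0.249) and -0.67 for null against siRNA (adjusted p = 0.231), the same directions but neither called. No source used here says which isoform either probe reads.

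Gapdh, often used as a loading control, read 5.70, 5.82, 7.23 and 7.53 in null, 6.24, 6.74, 7.46 and 8.02 in siRNA, and 6.22, 6.83 and 6.87 in wild-type samples. The groups overlapped, with replicates 1 and 2 low in both null and siRNA. Its siRNA change was 1.27 ± 0.35 (SE, adjusted p = 0.0484), just under the threshold, and the call was lost on leaving out any 1 of the 11 samples (changes of 1.17 to 1.37, adjusted p of 0.0526 to 0.193) and with the replicate number as a block (1.31, adjusted p = 0.0601). Within replicates 3 and above, siRNA minus wild type was 1.102. The array holds 26 Gapdh probes. For siRNA against wild type they ran from -2.07 to 2.31 with a median of 0.71, 22 were above 0, and 2 were called, both as rises. For null against wild type the median was 0.29 with 18 above 0, and for null against siRNA -0.48 with 1 above 0. Neither of these held a called probe.

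**Figure D3:**
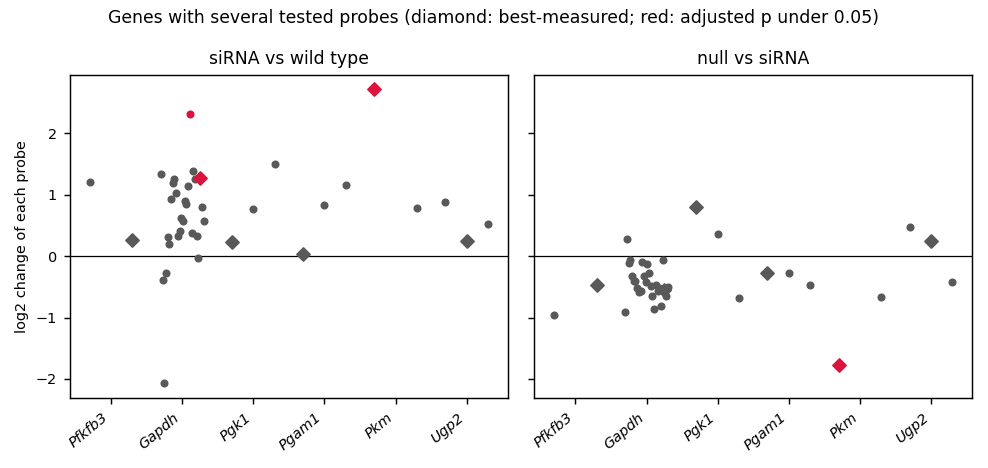
Log2 change (y axis) of every tested probe for the 6 genes with several tested probes (x axis), for siRNA against wild type and null against siRNA. Diamonds are the probe used for the gene and red marks a called probe; the Gapdh probes spread from -2.07 to 2.31 in the left panel, and the second Pkm probe sits at 0.79 below the called one at 2.72.

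Pgk1 (phosphoglycerate kinase) spanned 6.48 to 7.93 in null and 5.47 to 6.97 in siRNA, against 5.18 to 6.98 in wild-type samples. Its fitted changes were 1.03 in null and 0.23 in siRNA against wild type, neither called, and a further Pgk1 probe gave 1.50 for siRNA (adjusted p = 0.0590). Null against siRNA gave 0.80 for the probe used, -0.69 for that further probe and 0.36 for another, none called. Pgam1 (phosphoglycerate mutase) had changes within -0.27 to 0.04 in the 3 comparisons. Further Pgam1 probes gave 0.83 and 1.15 for siRNA and 0.55 and 0.68 for null against wild type, none called. Eno2, the enolase best known from neurons, had changes within -0.07 to 0.44. All 3 overlapped between every pair of groups.

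Lactate dehydrogenase is built from A and B subunits, with B favouring the use of lactate over its production. Ldhb read 5.47, 5.51, 4.47 and 5.06 in null, 4.92, 5.09, 3.86 and 3.12 in siRNA, and 6.25, 6.27 and 5.19 in wild-type samples. Every siRNA sample lay below every wild-type sample, while null samples overlapped both. Ldhb was 4.71-fold lower in siRNA samples than in wild type (-2.23 ± 0.45 SE, adjusted p = 0.0132), by -2.41 within replicates 3 and above, and 2.55-fold lower in null samples without being called (-1.35 ± 0.45 SE, adjusted p = 0.150). The siRNA call was lost without siRNA sample 3 or 4 or wild-type sample 4 (changes of -2.57 to -1.84 over all omissions, adjusted p up to 0.125). It also rests on the wild-type samples used: realigned wild-type samples 1 and 2 read 1.198 and 1.48, and with them added the siRNA change was 0.28 and not called. Ldha was measured in 8 of 11 samples. It read -2.53, -1.99 and -2.76 in null samples 2 to 4, -2.73, -2.78 and -2.65 in siRNA samples 2 to 4, and -2.16 and -3.27 in wild-type samples 3 and 6. These groups overlapped, and all changes were within 0.02 to 0.31. The only Ldha probe averaged -2.61, at percentile 3.14 among probes, so these values cannot show whether Ldha changed.

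Slc16a1 and Slc16a3 encode the lactate transporters MCT1 and MCT4, and neither was called in any comparison. Slc16a1 read 4.301, 3.87, 5.60 and 5.62 in null, 1.95, 2.15, 5.59 and 5.05 in siRNA, and 5.21, 4.56 and 3.88 in wild-type samples. The first pair of siRNA samples stood below all others, and the later pair lay with the null samples of their set. Its changes were 1.43 ± 0.50 (SE, adjusted p = 0.164) in null and 0.27 in siRNA against wild type, and 1.16 for null against siRNA (adjusted p = 0.111). Slc16a3, the form associated with lactate export from astrocytes, ran from 0.63 to 1.07 in null and -1.33 to 0.16 in siRNA, against -0.25 to 1.14 in wild-type samples. Null lay above siRNA without overlap, by 1.45 ± 0.43 (SE, adjusted p = 0.0658). This difference was called with the replicate number as a block (adjusted p = 0.0455), but not with array pairs or without the set term. It was 2.36 in replicates 1 and 2 and 0.55 in replicates 3 and 4.

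Pyruvate enters the mitochondrion's oxidative metabolism through pyruvate dehydrogenase, which pyruvate dehydrogenase kinases switch off. None of the 6 genes of this step was called in any comparison. The shares of all probes called were 0.606% for null and 7.45% for siRNA against wild type, and 5.91% between them. Against wild type all 6 changes were above 0 in null samples (0.22 to 0.78), and 4 of 6 in siRNA samples (-0.33 to 0.43). Pdk4, the kinase induced by fasting in many tissues, read 0.84, 0.83, 2.02 and 1.578 in null, 1.54, 1.61, 0.98 and 1.18 in siRNA, and 1.69, 0.36 and 1.13 in wild-type samples. Its null minus siRNA difference was -0.73 in replicates 1 and 2 and 0.72 in replicates 3 and 4. Dlat (the acetyltransferase subunit) and Pdha1 (a subunit of the decarboxylase) also changed sign between sets, from values of 2.74 to 3.56 in null and 2.05 to 3.58 in siRNA for Dlat, and 1.95 to 4.79 in null and 2.81 to 4.21 in siRNA for Pdha1. Pdhb, the other decarboxylase subunit, had changes of 0.03 to 0.37. Pdk1 ran from -0.71 to 2.01 in null and -1.02 to 1.34 in siRNA, against 1.14 to 1.49 in wild-type samples. Pdk2 ran from -1.66 to 1.50 in null and -3.40 to 0.79 in siRNA, against 0.25 to 1.15 in wild type, and its null to siRNA change was 1.11 ± 0.37 (SE, adjusted p = 0.0943). For both kinases the low values were those of replicates 1 and 2.

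**Figure D4:**
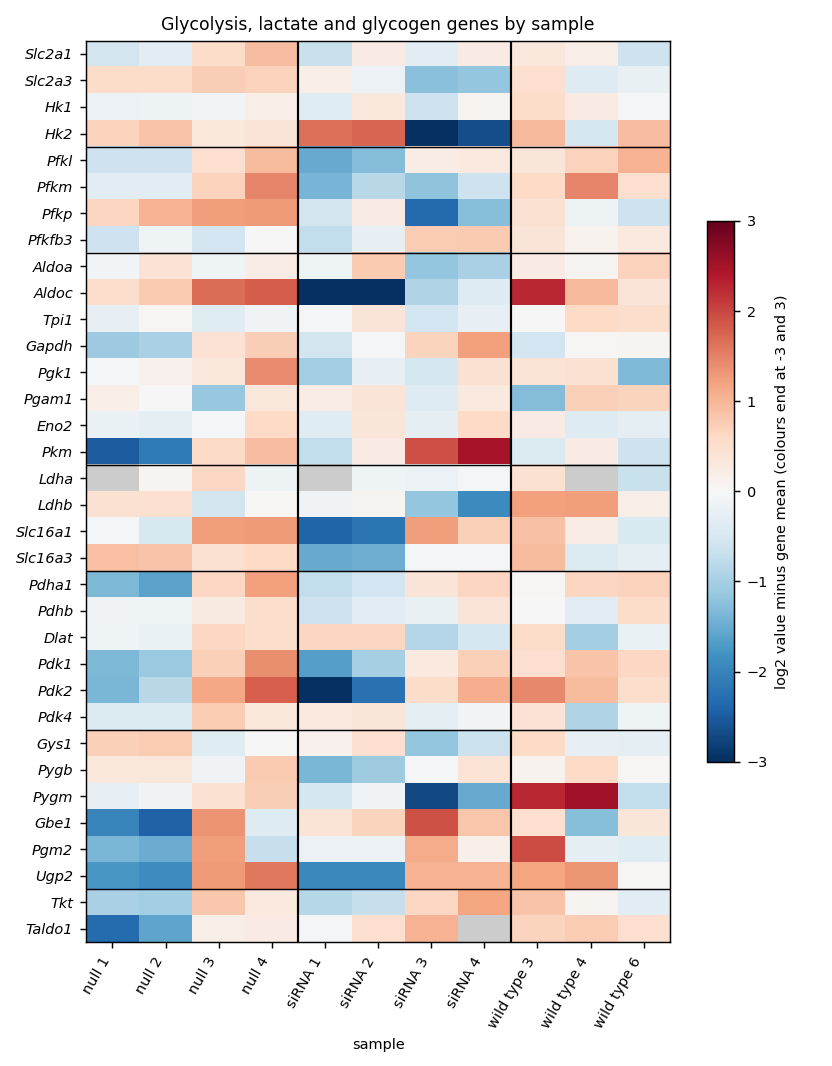
Log2 value minus the gene's mean over samples (colour; grey marks no value) for 34 genes (rows, grouped by step) in the 4 null, 4 siRNA and 3 wild-type samples (columns). Replicates 1 and 2 of null and siRNA are bluer than replicates 3 and 4 for Pkm, Pdk1, Pdk2 and Ugp2, while Hk2 shows the opposite order in siRNA samples.

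Of the 6 glycogen genes none was called against wild type or between null and siRNA. Beside this stand 0.606% of all probes for null and 7.45% for siRNA against wild type, and 5.91% between them. Gys1, the glycogen synthase outside the liver, read 1.25, 1.30, 0.17 and 0.55 in null, 0.66, 1.03, -0.61 and -0.11 in siRNA, and 1.13, 0.29 and 0.26 in wild-type samples, overlapping throughout, with a siRNA change of -0.84 (adjusted p = 0.229). Pygb, the brain glycogen phosphorylase, read 5.29, 5.33, 4.88 and 5.78 in null, 3.61, 3.91, 4.93 and 5.403 in siRNA, and 5.08, 5.58 and 5.01 in wild-type samples. Only the first pair of siRNA samples stood apart, and null minus siRNA was 0.86 ± 0.37 (SE, adjusted p = 0.171).

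Gbe1, the branching enzyme, had the lowest unadjusted p of the genes that were not called. It read -0.37, -0.79, 2.98 and 1.25 in null, 2.05, 2.30, 3.55 and 2.47 in siRNA, and 2.14, 0.36 and 2.00 in wild-type samples. Within each set siRNA samples averaged above null samples, by 2.76 in replicates 1 and 2 (null minus siRNA of -2.76) and by less in replicates 3 and 4 (-0.89). The fitted changes were -1.83 ± 0.50 for null against siRNA (SE, adjusted p = 0.0517) and 1.84 ± 0.60 for siRNA against wild type (SE, adjusted p = 0.0826), and both were called with the replicate number as a block (adjusted p = 0.0167 and 0.0229). Both were also called on leaving out only wild-type sample 6, which the block drops from contrasts with wild type (adjusted p = 0.0337 and 0.0471). Neither was called with array pairs or without the set term.

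Pygm, the muscle form of phosphorylase that astrocytes also express, ran from 3.54 to 4.51 in null and 1.06 to 3.67 in siRNA, against 3.03 to 6.29 in wild-type samples. Its siRNA change was -2.81 ± 0.86 (SE, adjusted p = 0.0673), called with the replicate number as a block (-3.86, adjusted p = 0.00335), where wild-type sample 6 has no partner and drops out. Leaving out that sample alone gave the same change (adjusted p = 0.00600). With array pairs or without the set term, Pygm was not called. Wild-type samples 3 and 4 (6.03 and 6.29) were the 2 highest readings, and sample 6 (3.03) lay among the siRNA values. Pgm2, annotated as a phosphoglucomutase, had changes of -0.81 to 0.23. Ugp2, which makes the UDP-glucose that glycogen synthase uses, differed far more between sets than between groups: it read 2.20, 2.06, 5.25 and 5.54 in null, 2.04, 2.03, 4.99 and 4.998 in siRNA, and 5.14, 5.29 and 3.999 in wild-type samples. Its fitted changes were 0.24 to 0.49. Further Ugp2 probes gave 1.36 and 0.11 for null and 0.88 and 0.53 for siRNA against wild type, none called.

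The pentose phosphate branch, which makes NADPH and ribose, was represented by 2 enzymes of its non-oxidative part. Taldo1 (transaldolase) read 2.61, 3.33, 5.10 and 5.16 in null samples 1 to 4, 4.87, 5.42 and 5.97 in siRNA samples 1 to 3, and 5.59, 5.67 and 5.42 in wild-type samples. All null samples lay below all wild-type samples, and siRNA samples spanned them. Null samples were 3.30-fold lower than siRNA samples (-1.72 ± 0.39 SE, adjusted p = 0.0281), by -2.18 in replicates 1 and 2 and -0.84 in replicates 3 and 4. This call was lost without null sample 1, 2 or 4 or siRNA sample 1, 2 or 4 (changes of -1.90 to -1.41 over the 10 omissions that gave a value, adjusted p up to 0.119), and without siRNA sample 3 it could not be fitted. Against wild type the null change was -0.59 and the siRNA change 1.13, neither called. Tkt (transketolase) ran from 2.85 to 4.67 in null and 3.001 to 5.06 in siRNA, against 3.54 to 4.72 in wild-type samples, with changes of -0.29 to 0.63.

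By the overlap of single samples, null lay above siRNA for 5 genes (Slc2a3, Pfkm, Pfkp, Aldoc and Slc16a3) and below it for none. Of all tested probes 11.5% lay above and 4.49% below in the same way. Null lay above wild type for Slc2a3 and Pfkp, as did 8.06% of all probes, and below it for Pfkfb3 and Taldo1, as did 4.07%. The siRNA samples lay below wild type for Pfkl, Pfkm, Aldoc and Ldhb, as did 10.8% of all probes, and above it for none, beside 6.37%. These groups mix sets, since by their numbers none of the wild-type samples used belongs to the first one.

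The first set read lower than the later set for 27 of 34 genes in null samples (median difference -0.80, range -3.26 to 0.91) and for 22 of 34 in siRNA samples (median -0.58, range -3.49 to 5.25). The median over all probes was also below 0, at -0.94 in null and -0.72 in siRNA samples. Null minus siRNA was above 0 in both sets for 17 genes and below 0 in both for 7. It was negative in replicates 1 and 2 and positive in replicates 3 and 4 for 9 genes, and the opposite for 1, Pfkfb3. Each set is 2 consecutive samples per group, so these differences carry no test here. Within replicates 3 and above, null minus wild type was above 0 for 23 of 34 genes (median 0.37), siRNA minus wild type for 15 (median -0.07) and null minus siRNA for 26 (median 0.43).

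**Figure D5:**
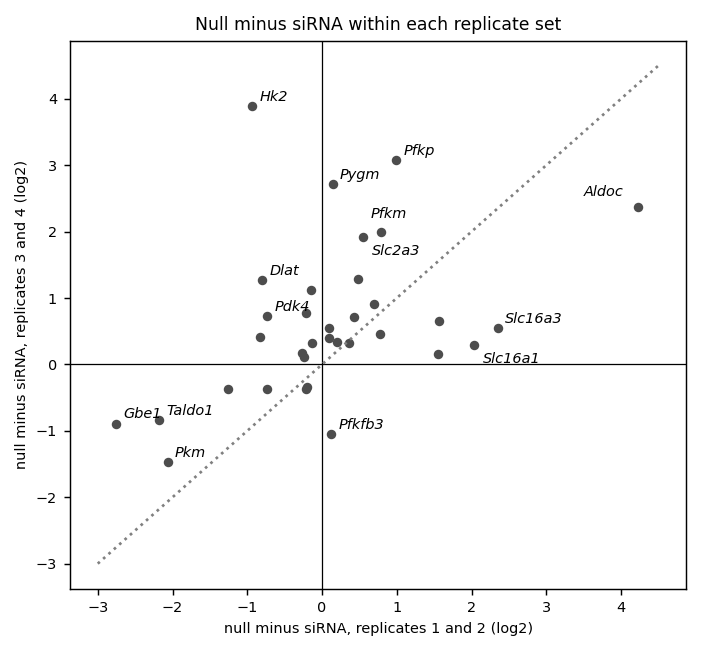
Null minus siRNA (log2) in replicates 1 and 2 (x axis) against replicates 3 and 4 (y axis), 1 point per gene, for 34 genes; the dotted line marks equal differences. Aldoc at 4.22 and 2.38 and Pkm at -2.06 and -1.47 keep their sign, while Hk2 lies at -0.93 and 3.88.

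Among 78 further genes of carbohydrate metabolism, 58 had a probe and 45 were tested. Beside all counts of called genes in this paragraph stand the shares of all probes called. These were 0.606% for null and 7.45% for siRNA against wild type, and 5.91% for null against siRNA. Against wild type none of the 45 was called in limma in null samples (median 0.24) or in siRNA samples (median -0.09), and 6 in each had an unadjusted p under 0.05, beside 17.1% of all probes in null and 23.4% in siRNA. Between null and siRNA samples 3 were higher in null and 1 was lower (median 0.26). The higher ones were Phkg1, a catalytic subunit of phosphorylase kinase, by 2.23 ± 0.38 (SE, adjusted p = 0.00752), Khk (ketohexokinase) by 3.27 ± 0.68 (SE, adjusted p = 0.0216) and Pygl, the liver glycogen phosphorylase, by 1.41 ± 0.36 (SE, adjusted p = 0.0424). Pdk3, a pyruvate dehydrogenase kinase, was lower by a log2 change of -1.49 ± 0.33 (SE, adjusted p = 0.0242). Of 17 tested genes of the hypoxia response, a program known to raise glycolytic genes, none was called in null samples against wild type and 1 had an unadjusted p under 0.05. Ndrg1 fell in siRNA against wild type (-1.89 ± 0.41 SE, adjusted p = 0.0176), and no other gene of the list was called there. Ndrg1 (1.98, adjusted p = 0.00772) and Mxi1 (1.52, adjusted p = 0.0256) were higher in null than in siRNA samples, and none was lower.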

How the data were processed

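RNA of cultured astrocytes was hybridised to arrays of spotted mouse oligonucleotides, with 20 ug of total RNA per sample labelled with Cy3 or Cy5 per the labels' protocols. The authors deposited 1 log2 value per probe and sample, already centred to a median of 0 in each column. No scanner, background or normalization step appears in the labels or file headers, and the reason for missing values is unknown, so signal over background cannot be given, and precision is set by how few arrays there are. The platform annotation names 1 gene for 18179 of 33600 probes, several for 87 and none for 15334. Symbols were checked against RefSeq genes of GRCm38.p6, which changed 0 of them.

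Groups were taken from the titles. The model of limma 3.58.1 (lmFit and eBayes, R 4.3.3) held 4 null, 4 siRNA and 3 wild-type samples with dye and replicate set as covariates. Tested were probes with at least 2 values per group and at least 1 null and 1 siRNA value in replicates 3 and above. Two-sided p-values were adjusted over 19976 probes with the Benjamini-Hochberg method. On simulated data for siRNA against wild type, with 200 of 19976 probes changed, the model called 79 of 100 probes changed by 4 and 26 of 100 changed by 2 on the log2 scale. The simulated errors were independent between samples, whereas consecutive samples had an estimated correlation of 0.4343. Fewer probes were changed than the 1488 called in the data, so these shares need not hold for the data. A gene with several probes was represented by the one with most values, then the higher mean.

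Samples of different groups share replicate numbers, and their deviations from group means correlated at 0.12092 to 0.64748 in all 8 same-numbered pairs over 14243 probes, so the number was tried as a block. The pairing comes from this check, not from a stated litter or day. Those deviations still hold the difference between replicate sets, and samples with different numbers were not compared. The check therefore cannot tell pairing by number apart from the replicate sets. Other settings were array pairs as a random block, no set or no dye term, other sample choices, quantile normalization, other probes per gene, a filter on missing values and leaving out each sample. Values in every sample are printed for called genes, for Gbe1 by its unadjusted p, and for 13 genes fixed whatever their values. The members and all lists (78 further pathway genes, 20 hypoxia genes, and markers of astrocytes, microglia, oligodendrocytes, neurons, fibroblasts and mural cells, ependyma and endothelium) were chosen with earlier results of these data known.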

Additional observations from a re-analysis of the deposited data

Results flagged for a closer look

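In 6 genes both same-numbered differences of null minus siRNA had one sign in replicates 1 and 2 and the other sign in replicates 3 and 4. The difference between the sets was not tested, since each set holds 1 pair of consecutive samples per group. For Hk2, replicates 1 and 2 gave -0.96 and -0.90 and replicates 3 and 4 gave 4.73 and 3.04, so that the first set minus the later set was -4.819. Dlat gave -0.77 and -0.83, against 1.51 and 1.04, a difference between sets of -2.072. Pdk4 gave -0.69 and -0.77, against 1.05 and 0.40 (-1.457), and Pdha1 gave -0.61 and -1.04, against 0.24 and 0.57 (-1.232). Pfkfb3 was the only 1 of the 6 with the opposite order, at 0.13 and 0.11, against -1.33 and -0.77 (1.172). The smallest was Tpi1, at -0.21 and -0.31, against 0.21 and 0.13 (-0.4364). No sample stood apart from its group by Dixon's test in the 65 groups of 4 samples that allowed it.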

How the results depend on the processing

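No gene was called for null against wild type under any of the 12 other settings run for it or on leaving out any 1 sample. The medians of the 34 genes moved by less than the spread between samples (SD 0.561) in every comparison. That spread itself holds the difference between replicate sets, so it is a loose yardstick. Without the set term the medians against wild type changed sign, from 0.3218 to -0.0992 in null and from 0.0252 to -0.4107 in siRNA samples. Leaving out 1 sample gave medians of 0.1321 to 0.4498 for null against wild type, -0.1458 to 0.1286 for siRNA against wild type and 0.2574 to 0.4843 for null against siRNA. The counts of called genes were less stable. For siRNA against wild type (4 called) they were 0 without the set term, 1 (Pkm) with array pairs and 1 (Pkm) with realigned wild-type samples and array pairs, and 1 to 6 on leaving out 1 sample (1 without siRNA sample 3 or 4 or wild-type sample 4, 2 without null sample 4 or wild-type sample 3, 6 without wild-type sample 6). For null against siRNA (5 called) they were 0 without the set term, 1 (Aldoc) with array pairs, 1 (Aldoc) with all 14 samples as deposited, 0 with realigned samples and array pairs, and 2 to 7 on leaving out 1 sample (2 without null sample 4 or siRNA sample 3 or 4, 3 without null or siRNA sample 1 or 2, 7 without wild-type sample 3). With replicates 1 and 2 only, 19 of 33 tested genes were called, beside 8004 of 16266 probes, because the spread then comes from consecutive samples alone. With the replicate number as a block, which pairs the samples, 8 genes were called for null against siRNA, adding Slc2a3, Slc16a3 and Gbe1, and 6 for siRNA against wild type, adding Pfkm, Pygm and Gbe1 and losing Gapdh; it changed no other call. The block leaves wild-type sample 6, whose number no other group has, out of the contrasts with wild type, and leaving out that sample alone gave the same 6 genes for siRNA against wild type. In replicates 3 and above only, 33 genes were tested: 6 were called for siRNA against wild type, adding Hk2, Pfkm and Pygm and losing Gapdh, and 5 for null against siRNA, adding Slc2a3 and Hk2 and losing Pkm, while Taldo1 was not tested. Among values called in the model or in the alternative, directions reversed for Ldhb in siRNA against wild type once realigned wild-type samples 1 and 2 were added (0.2849, and 0.2199 with array pairs), and in replicates 1 and 2 alone for Hk2 (-0.9341) and Dlat (-0.8010) in null against siRNA. A further 124 of 1248 values of single genes changed sign without a call on either side, 5 of them from a size over 1, such as Pfkp in siRNA (0.9079 with all 14 samples) and Ldhb in null against wild type (1.168 with realigned samples), and so did 56 of 1113 on leaving out 1 sample. The null change of Gja1 stayed negative but was not called without the set term (-5.2074), with array pairs (-3.1081), with all 14 samples or the realigned ones (-3.3106 in both) and with realigned samples and array pairs (-3.0649), and ran from -3.9996 to -2.6459 on leaving out 1 sample. Of all probes, 121, 1488 and 1181 were called in the 3 comparisons (null against wild type first, null against siRNA last), 0, 50 and 72 without the set term, 3, 249 and 129 with array pairs, 384, 1960 and 2341 with the replicate block, 1, 527 and 162 with all 14 samples, 0, 893 and 644 with realigned samples, 0, 114 and 55 with realigned samples and array pairs, and 877, 1769 and 1893 in replicates 3 and above. Quantile normalization gave 305, 1625 and 1512. The realigned samples with array pairs were added after seeing the data, and the cause of these changes was not tested.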

Other observations

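Wild-type samples 1 and 2 stood in none of the main comparisons above, and after realignment to the grid row they matched, 31 of the genes described could be read in them. Their place on the grid was chosen to match the other samples, which favours likeness. For Aldoc they read 2.55 and 2.81 and for Hk2 3.54 and 3.72, near or within the range of the other wild-type samples. Ldhb read 1.198 and 1.48 and Gapdh 3.83 and 4.36 in them, below all 11 other samples. Taldo1 read 2.37 and 2.495, below all others measured.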
